A study of Mus musculus with 10 samples.

Results

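Interferon-induced genes were followed in 50-day cultures of mouse intestinal organoids, which are structures grown in a gel from the crypts of the gut wall. The group holds 38 genes chosen by symbol, of 47069 genes in the count table, and was sorted by role into 5 regulators of the response, 4 sensors of viral nucleic acid, 17 antiviral effectors, 8 interferon-inducible GTPases and 4 genes of class I antigen processing. The series has 10 RNA-seq libraries in 5 groups of 2. All organoids carried the Lgr5-EGFP-CreERT2 allele and Ppp2r1a flox/flox on the C57BL/6 background, so that the control organoids carry the same alleles, and all were grown in medium with Noggin, EGF and R-spondin-1. The control group received saline, the DMBA group 7,12-dimethylbenzanthracene (a carcinogen, labelled Long), the TAM short and TAM long groups tamoxifen (labelled dosage-sensitive, short or Long), and the DMBA+TAM group both agents. Tamoxifen activates a Cre recombinase that the Lgr5 promoter drives in crypt stem cells and that removes exons of Ppp2r1a, the scaffold subunit of protein phosphatase 2A (PP2A), so cells that do not descend from such a stem cell keep the gene. The methods describe tamoxifen by injection into mice, and neither the doses in the organoid cultures nor the meaning of short and Long is given in the sources used here, nor is it stated that the 2 libraries of a group came from separate cultures, so that all p-values measure only the spread between these libraries, which may be technical. The library names hold NS for control, NL for DMBA, DSS_S for TAM short, DSS_L for TAM long and Lgr5 for DMBA+TAM, and the letters were not taken as a treatment.

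Interferons are secreted proteins that cells release when sensors detect viral nucleic acid. Type I interferons (alpha and beta) and type III interferons (lambda, whose receptor sits mainly on epithelium) lead to a complex with STAT2 and IRF9 that binds the interferon-stimulated response element (ISRE) and switches on antiviral effectors. Type II interferon (gamma, made by T and NK cells) acts through the gamma-activated site (GAS) and raises IRF1, the GTPases and the antigen-processing genes, and many genes respond to several types. The intestinal epithelium is known to keep a low antiviral programme running without infection.

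The libraries differ in depth and in the tissue genes they hold, which bears on every comparison. The totals were 8828247 to 10923673 counts in 8 libraries and 1592366 and 1915270 in DMBA+TAM, where 3 counts correspond to 1.584 and 1.322 CPM (counts relative to library size) against 0.2588 to 0.3786 elsewhere. The replicates of DMBA and of TAM long differed more than those of control and TAM short (chi-square per degree of freedom 67.1 and 23.2, against 7.21 and 5.57). This measure was taken on raw counts and grows with depth. The value of DMBA+TAM, 6.29, can therefore not be set beside the others. Ppp2r1a itself had 123 and 129 CPM in control, 167 and 153 in DMBA, 131 and 147 in TAM short, 169 and 157 in TAM long and 129 and 133 in DMBA+TAM. It was thus not lower in a group with tamoxifen than in control, and because counts over the whole gene include the exons that Cre leaves in place, they do not check the labels. The label calls every sample intestinal organoid, but the 8 epithelial markers summed to 12950 to 22350 CPM in 8 libraries and to 32.7 and 22.0 CPM in DMBA+TAM, where Epcam had 3 counts in each library and Vil1 had 1 in each. In DMBA+TAM the 8 fibroblast markers summed to 31449 and 32445 CPM against 640 to 2051 elsewhere, and the 7 macrophage markers to 4410 and 4015 CPM against 149 to 239. All 8 fibroblast and all 7 macrophage markers were higher and all 8 epithelial markers lower in DMBA+TAM than in control (edgeR, adjusted p below 0.05). The other 8 libraries also held markers of further cell types, with 466 to 1501 CPM of 5 B and plasma cell markers (3.17 and 3.97 in DMBA+TAM) and 1028 to 10694 CPM of 5 smooth muscle markers (862 and 1156). Genes of the small intestine separated the other groups. The 8 small intestine markers summed to 20528 and 23161 CPM in control and 18552 and 18040 in TAM short, but to 99.0 and 18.5 in DMBA and 290 and 182 in TAM long. The 6 colon markers summed to 506 and 530 CPM in control and 569 and 606 in TAM short, but to 7267 and 3229 in DMBA and 12724 and 5750 in TAM long. Within the small intestine list, control held Lct (lactase, 11317 and 12909 counts) and little Fabp6 (ileal bile acid-binding protein, 25 and 2), and TAM short the reverse (Lct 27 and 7, Fabp6 69451 and 71046). The part of these differences in the results that follow was not tested. In bulk samples fewer cells of a type and less RNA per cell cannot be told apart.

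**Figure D1:**
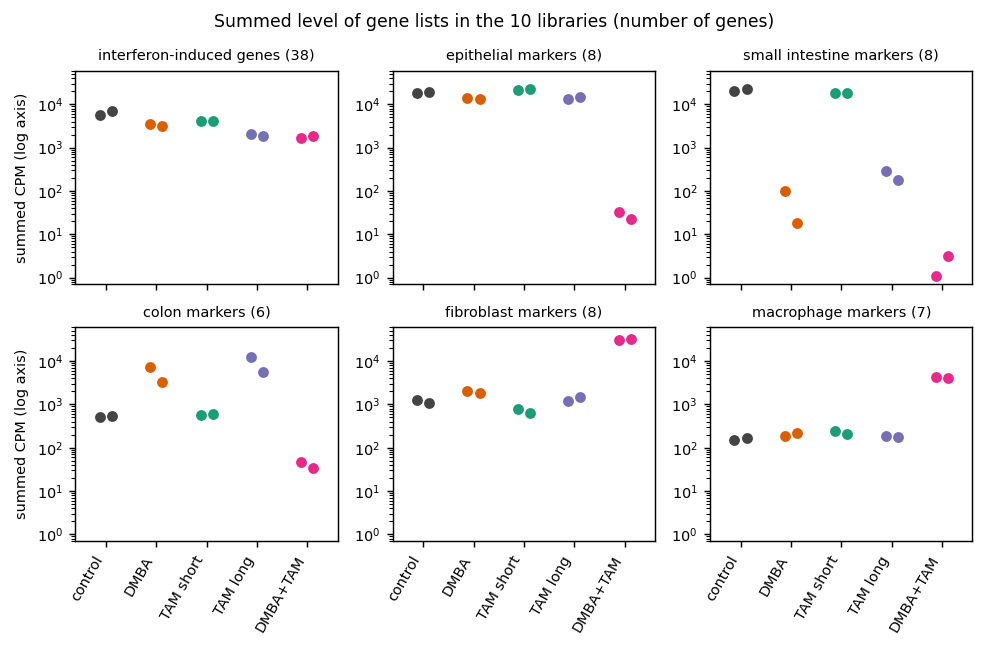
Summed level in CPM (log axis) of the interferon-induced genes and of 5 marker lists, with 1 point for each of the 2 libraries of the 5 groups. The small intestine markers are high in control and TAM short, the colon markers in DMBA and TAM long, and DMBA+TAM holds 32.7 and 22.0 CPM of epithelial markers but 31449 and 32445 CPM of fibroblast markers.

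To show what the 2 kinds of binding site look like in these genes, promoter sequence was searched on both strands for GAAA followed, after any 2 bases, by GAAA again (ISRE), and for TTCNNNGAA (GAS, where N is any base). The windows ran from 250 bases before to 50 after the start of the gene (RefSeq, GRCm38.p6), and 26 of the 38 genes matched a window. An ISRE was present in 15 of the 26 (57.7%), against 3.99% of 27025 genes with a window, and a GAS in 7 (26.9%), against 9.55%. By role, an ISRE was found in 1 of 4 regulators, 2 of 2 sensors, 7 of 12 effectors, 5 of 5 GTPases and 0 of 3 antigen-processing genes. A match is a description of the letters and not a shown binding site. The search took only these exact letters within the windows, so a gene without a match may still have a site. No window was given for Usp18, Dhx58, Zbp1, Oas2, Mx1, Mx2, Parp9, Parp14, Gbp4, Gbp6, Iigp1 and Nlrc5. The 250 bases before the start follow for 5 genes on which the results turn, 5′ to 3′ on the strand of the gene, with ISRE and GAS matches in capitals.

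Isg15, chr4:156200819-156201068, minus strand: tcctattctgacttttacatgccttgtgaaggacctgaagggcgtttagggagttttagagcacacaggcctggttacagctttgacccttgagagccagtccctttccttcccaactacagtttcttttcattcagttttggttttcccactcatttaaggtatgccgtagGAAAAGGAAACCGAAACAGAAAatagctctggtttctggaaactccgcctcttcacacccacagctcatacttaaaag
Ifit3, chr19:34583279-34583528, plus strand: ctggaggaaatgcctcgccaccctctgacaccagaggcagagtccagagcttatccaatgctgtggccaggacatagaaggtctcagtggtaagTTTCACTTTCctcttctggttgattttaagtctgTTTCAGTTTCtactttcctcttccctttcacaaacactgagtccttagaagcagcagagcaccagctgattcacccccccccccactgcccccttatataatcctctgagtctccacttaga
Bst2, chr8:71537473-71537722, minus strand: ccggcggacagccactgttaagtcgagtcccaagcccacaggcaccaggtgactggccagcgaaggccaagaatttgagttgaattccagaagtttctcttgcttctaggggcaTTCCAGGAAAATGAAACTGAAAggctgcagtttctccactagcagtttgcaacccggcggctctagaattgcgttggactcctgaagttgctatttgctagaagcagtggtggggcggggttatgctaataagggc
Gbp2, chr3:142620413-142620662, plus strand: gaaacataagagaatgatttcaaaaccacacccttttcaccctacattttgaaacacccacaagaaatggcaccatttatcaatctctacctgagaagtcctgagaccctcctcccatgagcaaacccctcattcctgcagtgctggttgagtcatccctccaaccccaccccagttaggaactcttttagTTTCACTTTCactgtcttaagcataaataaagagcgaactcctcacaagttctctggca
Irf1, chr11:53769764-53770013, plus strand: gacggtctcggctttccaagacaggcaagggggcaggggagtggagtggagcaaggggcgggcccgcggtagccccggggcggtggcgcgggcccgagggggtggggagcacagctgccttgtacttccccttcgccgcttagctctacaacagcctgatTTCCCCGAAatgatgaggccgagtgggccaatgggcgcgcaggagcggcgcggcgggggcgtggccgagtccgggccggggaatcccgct

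Isg15 holds 3 overlapping ISRE matches, which begin at -78, -72 and -66 from the start, and Ifit3 holds 2, at -156 and -122, which read TTTC first because they lie on the other strand. In Bst2 a GAS at -136 runs into 2 overlapping ISRE matches at -130 and -124. Gbp2 has an ISRE at -59 and no GAS, and Irf1 a GAS at -90 and no ISRE. Positions are from the RefSeq start. The Gbp2 gene as counted begins before that start, at chr3:142620602, so its ISRE match lies within the counted gene. Short stretches of the same kind are given for 4 further genes, an effector (Oas3) and 3 GTPases, with 10 bases on each side of the match.

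Oas3 ISRE: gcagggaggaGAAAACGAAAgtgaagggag
Gbp7 ISRE: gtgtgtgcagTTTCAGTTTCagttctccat
Gbp7 GAS: tccgttttctTTCCAGGAAaagcagaagc
Igtp ISRE: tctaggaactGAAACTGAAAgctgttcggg
Igtp GAS: aactagccatTTCTAGGAActgaaactga
Irgm1 ISRE: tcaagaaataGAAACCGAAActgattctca

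The 38 genes together made up 5707 and 7150 CPM in control, 4216 and 4172 in TAM short, 3591 and 3116 in DMBA, 2050 and 1829 in TAM long and 1710 and 1834 in DMBA+TAM. Control was above every other group, and TAM long and DMBA+TAM overlapped. Of the single genes, 21 had their highest mean in control, 11 in TAM short, 5 in DMBA and 1 (Bst2) in DMBA+TAM, and none in TAM long. The lowest mean fell in DMBA+TAM for 16 genes, in TAM long for 14, in TAM short for 6 and in control and DMBA for 1 each (Gbp2 and Gbp4). In 24 of the 38 genes (63.2%) both libraries of the highest group lay above all 8 others, a share near the 58.8% of all genes tested. On the FPKM scale, which divides by gene length, Isg15 was the highest of the 38 genes in control (416), Irf7 in DMBA (354) and TAM long (222), Irf1 in TAM short (403) and Bst2 in DMBA+TAM (194). Gbp6 was the lowest in each group (0.314 to 2.05). Of its 50-base stretches 70.7% also occur in other genes, mainly Gm43302, whose exons overlap 29% of the Gbp6 exonic bases on the same strand. Reads from these stretches cannot be told apart. The same uncertainty holds for Oas1a (57.6%, Oas1g) and Ifit3 (51.2%, Ifit3b). The library kit does not mark strand, so reads where Psmb9 and Tap1 overlap (212 bases), where Parp9 overlaps Dtx3l and where Psmb8 overlaps Gm20496 cannot be told apart.

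**Figure D2:**
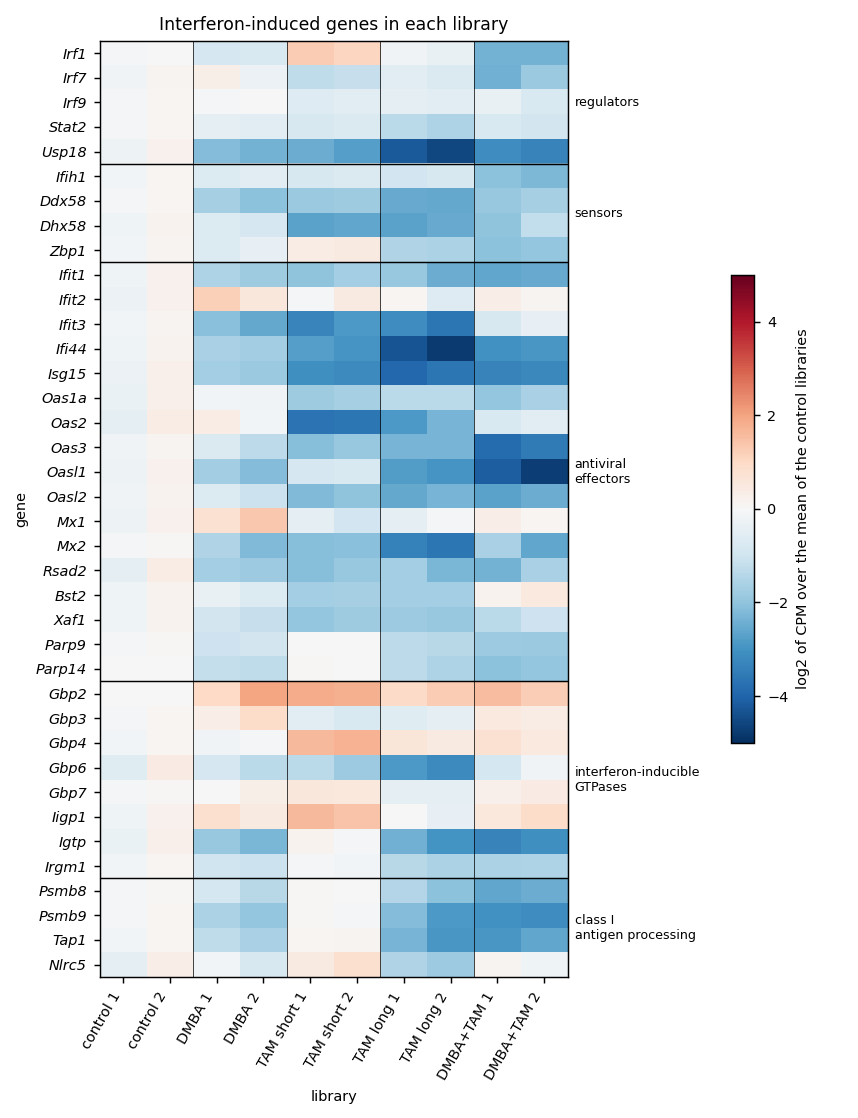
Level of each of the 38 interferon-induced genes (rows, in 5 roles) in each of the 10 libraries (columns), as log2 of its CPM over the mean of the 2 control libraries, with blue for lower and red for higher. Most effectors are blue in every group but control, while Gbp2 is red in all of them and Gbp4, Iigp1 and Irf1 are reddest in TAM short.

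The regulators did not follow a common order. Irf1, a transcription factor of the interferon gamma response (ENSMUSG00000018899, chr11:53770014-53778374, plus strand), had 1921 and 1903 counts in the control libraries, 1415 and 1183 in DMBA, 4747 and 3754 in TAM short, 2261 and 1753 in TAM long, and 82 and 99 in DMBA+TAM. It was highest in TAM short (505 ± 44.3 CPM, SD, n = 2) and lowest in DMBA+TAM (43.5 ± 0.235 CPM), and no 2 groups overlapped. Irf7, which drives the type I response once induced, had 2928 and 3429 counts in the control libraries, 5095 and 2672 in DMBA, 1354 and 1337 in TAM short, 2923 and 2274 in TAM long, and 134 and 231 in DMBA+TAM. Its DMBA libraries (455 and 300 CPM) spread on both sides of the control libraries (331 and 413), and DMBA+TAM lay below all others. Usp18, a protease that takes ISG15 off proteins and damps the type I receptor, had 1473 and 1954 counts in the control libraries, 495 and 350 in DMBA, 316 and 238 in TAM short, 127 and 88 in TAM long, and 44 and 45 in DMBA+TAM. Its level fell from 201 ± 48.6 CPM in control to 9.8 ± 1.63 CPM in TAM long. Stat2, which with IRF9 is part of the ISRE-binding complex, ranged from 137 ± 14.2 CPM in control to 50 ± 4.68 CPM in TAM long, and Irf9 from 81.2 ± 7.75 CPM in control to 54.7 ± 3.09 CPM in TAM short. For Irf9 the groups TAM short, TAM long and DMBA+TAM did not differ beyond the spread of their libraries.

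Among the sensors, Ddx58 (RIG-I) and Ifih1 (MDA5), which detect viral RNA in the cytosol, and Dhx58 (LGP2), which modulates them, were highest in control. Ddx58 had 188 and 213 CPM in control, 63 and 48.2 CPM in DMBA, 55.5 and 59.3 CPM in TAM short, 34.8 and 34.1 CPM in TAM long and 54.4 and 63.9 CPM in DMBA+TAM. Ifih1 had 155 and 183 CPM in control, 105 and 116 CPM in DMBA, 96.3 and 103 CPM in TAM short, 86.2 and 97.3 CPM in TAM long and 40.6 and 36.1 CPM in DMBA+TAM. Dhx58 had 59.4 and 79.4 CPM in control, 42.9 and 39.1 CPM in DMBA, 10.8 and 11.6 CPM in TAM short, 11 and 12.1 CPM in TAM long and 17.4 and 29.5 CPM in DMBA+TAM. In each of the 3 genes the control libraries lay above all others. Zbp1, a sensor of Z-form nucleic acid that can start cell death, was highest in TAM short instead. It had 1210 and 1394 counts in the control libraries, 1046 and 1002 in DMBA, 1744 and 1631 in TAM short, 630 and 522 in TAM long, and 70 and 90 in DMBA+TAM.

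The antiviral effectors were highest in control for 12 of 17 genes. Isg15, the ubiquitin-like protein that is attached to other proteins (ENSMUSG00000035692, chr4:156199424-156200818, minus strand), had 2715 and 3645 counts in the control libraries, 1287 and 923 in DMBA, 391 and 328 in TAM short, 286 and 306 in TAM long, and 70 and 91 in DMBA+TAM. That is 373 ± 93.4 CPM in control, 109 ± 7.97 CPM in DMBA, 42.8 ± 1.97 CPM in TAM short, 27.4 ± 3.82 CPM in TAM long and 38.5 ± 2.22 CPM in DMBA+TAM, and the groups did not overlap. Oas2, which makes the signal that activates RNase L, had 501 and 854 counts in the control libraries, 1149 and 647 in DMBA, 54 and 51 in TAM short, 128 and 164 in TAM long, and 88 and 126 in DMBA+TAM. Control and DMBA overlapped, DMBA+TAM lay below them, and TAM short was the lowest at 6.27 ± 0.236 CPM. Ifit3, a member of a family that binds viral RNA ends and its complexes, had 794 and 907 counts in the control libraries, 264 and 151 in DMBA, 90 and 108 in TAM short, 135 and 82 in TAM long, and 107 and 170 in DMBA+TAM. Relative to depth this put DMBA+TAM (65.7 ± 13 CPM) next to control (99.5 ± 13.8 CPM) and above the other 3 groups, all at most 23.6 CPM. Bst2 (tetherin, ENSMUSG00000046718, chr8:71534264-71537437, minus strand), which holds budding virus at the cell surface, had 759 and 931 counts in the control libraries, 858 and 550 in DMBA, 266 and 247 in TAM short, 351 and 310 in TAM long, and 213 and 313 in DMBA+TAM. DMBA+TAM was the highest (125 ± 18 CPM), but its lower library, at 112 CPM, was at the level of the higher control library.

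Other effectors followed these patterns with differences in order. Ifi44 had 1441 and 1751 counts in the control libraries, 687 and 494 in DMBA, 246 and 190 in TAM short, 109 and 69 in TAM long, and 44 and 57 in DMBA+TAM and, at 23.1-fold between its highest and lowest group mean, the widest range of the 38 genes. Oasl1, an OAS-like protein that lacks the enzyme activity and is known to hold back Irf7 translation in the mouse, had 2721 and 3607 counts in the control libraries, 1250 and 731 in DMBA, 1832 and 1723 in TAM short, 613 and 486 in TAM long, and 41 and 32 in DMBA+TAM. Oas3, which activates RNase L at low RNA doses, had 2089 and 2430 counts in the control libraries, 1790 and 962 in DMBA, 529 and 562 in TAM short, 612 and 543 in TAM long, and 35 and 51 in DMBA+TAM. Oasl2 had 4210 and 4994 counts in the control libraries, 3731 and 2281 in DMBA, 1033 and 1044 in TAM short, 1064 and 1103 in TAM long, and 162 and 221 in DMBA+TAM. These 4 genes were high in control and low in TAM long and DMBA+TAM. Mx2, a dynamin-like GTPase, had 453 and 464 counts in the control libraries, 213 and 102 in DMBA, 109 and 101 in TAM short, 59 and 45 in TAM long, and 33 and 20 in DMBA+TAM, and Rsad2 (viperin, which makes a chain-terminating nucleotide) had 683 and 1141 counts in the control libraries, 368 and 271 in DMBA, 215 and 231 in TAM short, 384 and 226 in TAM long, and 39 and 78 in DMBA+TAM. Ifit1, which binds viral RNA that lacks a host cap, had 2508 and 3189 counts in the control libraries, 1278 and 872 in DMBA, 737 and 813 in TAM short, 1040 and 616 in TAM long, and 105 and 134 in DMBA+TAM. Ifit2 and Mx1 were highest in DMBA, at 127 and 81.4 CPM in DMBA and 29.2 and 43.1 CPM in DMBA. Ifit2 had 404 and 540 counts in the control libraries, 1421 and 725 in DMBA, 475 and 603 in TAM short, 680 and 357 in TAM long, and 131 and 139 in DMBA+TAM. Mx1 had 126 and 165 counts in the control libraries, 327 and 384 in DMBA, 108 and 69 in TAM short, 141 and 164 in TAM long, and 41 and 42 in DMBA+TAM. Parp9 and Parp14, members of the ADP-ribosyltransferase family, had like levels in control and TAM short and were lower in the other 3 groups. Parp9 had 252 and 274 CPM in control, 130 and 141 CPM in DMBA, 264 and 260 CPM in TAM short, 107 and 100 CPM in TAM long and 75 and 73.1 CPM in DMBA+TAM. Parp14 had 409 and 410 CPM in control, 181 and 169 CPM in DMBA, 425 and 401 CPM in TAM short, 165 and 139 CPM in TAM long and 97.7 and 108 CPM in DMBA+TAM. Xaf1, a promoter of apoptosis, ran from 68 ± 12.9 CPM in control to 18.7 ± 0.684 CPM in TAM long, and Oas1a from 146 ± 42.7 CPM to 43.1 ± 6.4 CPM in DMBA+TAM.

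The interferon-inducible GTPases, which attack the vacuoles of intracellular microbes, were highest in TAM short for 5 of 8 genes. Gbp2 (ENSMUSG00000028270, chr3:142620602-142638008, plus strand) had 219 and 204 counts in the control libraries, 555 and 866 in DMBA, 792 and 672 in TAM short, 550 and 610 in TAM long, and 136 and 132 in DMBA+TAM. It was lowest in control (24.7 ± 0.136 CPM), below every other library, and its DMBA libraries (49.6 and 97.3 CPM) spanned all of TAM short and DMBA+TAM. Gbp4 had 69 and 76 counts in the control libraries, 84 and 70 in DMBA, 234 and 226 in TAM short, 149 and 118 in TAM long, and 27 and 27 in DMBA+TAM, Gbp7 had 404 and 421 counts in the control libraries, 552 and 528 in DMBA, 629 and 554 in TAM short, 400 and 348 in TAM long, and 110 and 144 in DMBA+TAM, and Iigp1 had 201 and 253 counts in the control libraries, 517 and 321 in DMBA, 720 and 564 in TAM short, 306 and 205 in TAM long, and 72 and 114 in DMBA+TAM. In these 3 genes the TAM short libraries lay above all others. Igtp had 1851 and 2615 counts in the control libraries, 782 and 473 in DMBA, 2646 and 2005 in TAM short, 571 and 332 in TAM long, and 49 and 71 in DMBA+TAM. Igtp and Irgm1 were alike in control and TAM short and lower in the other groups, at 180 and 211 CPM in control, 183 and 176 CPM in TAM short, 98.8 and 93.7 CPM in DMBA, 74.2 and 64.7 CPM in TAM long and 66 and 67 CPM in DMBA+TAM for Irgm1. Gbp3 had 271 and 295 counts in the control libraries, 468 and 562 in DMBA, 197 and 155 in TAM short, 253 and 238 in TAM long, and 88 and 97 in DMBA+TAM, highest in DMBA, where the libraries differed (41.8 and 63.1 CPM) and overlapped with DMBA+TAM. Gbp6 had 51 and 99 counts in the control libraries, 55 and 31 in DMBA, 31 and 20 in TAM short, 14 and 10 in TAM long, and 9 and 18 in DMBA+TAM.

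Of the antigen-processing genes 3 of 4 overlapped between control and TAM short and were lower elsewhere. Psmb8 and Psmb9 are subunits of the immunoproteasome, which cuts proteins into peptides, Tap1 carries these peptides into the endoplasmic reticulum, and Nlrc5 switches on class I genes. Psmb9 had 2234 and 2392 counts in the control libraries, 1017 and 628 in DMBA, 2458 and 2045 in TAM short, 696 and 374 in TAM long, and 62 and 72 in DMBA+TAM. Tap1 had 228 and 268 CPM in control, 262 and 271 CPM in TAM short, 104 and 80.6 CPM in DMBA, 49.2 and 32.6 CPM in TAM long and 33.3 and 41.4 CPM in DMBA+TAM, and Psmb8 had 191 and 210 CPM in control, 207 and 200 CPM in TAM short, 109 and 76.1 CPM in DMBA, 73.1 and 48.9 CPM in TAM long and 33.3 and 36.1 CPM in DMBA+TAM. TAM long and DMBA+TAM overlapped for Tap1 but not for Psmb8 and Psmb9. Nlrc5 had 194 and 318 counts in the control libraries, 305 and 155 in DMBA, 364 and 415 in TAM short, 122 and 87 in TAM long, and 62 and 58 in DMBA+TAM. Its TAM short libraries lay above all others, and its DMBA+TAM level (29.1 ± 5.07 CPM) was close to that of control (30.1 ± 11.6 CPM).

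**Figure D3:**
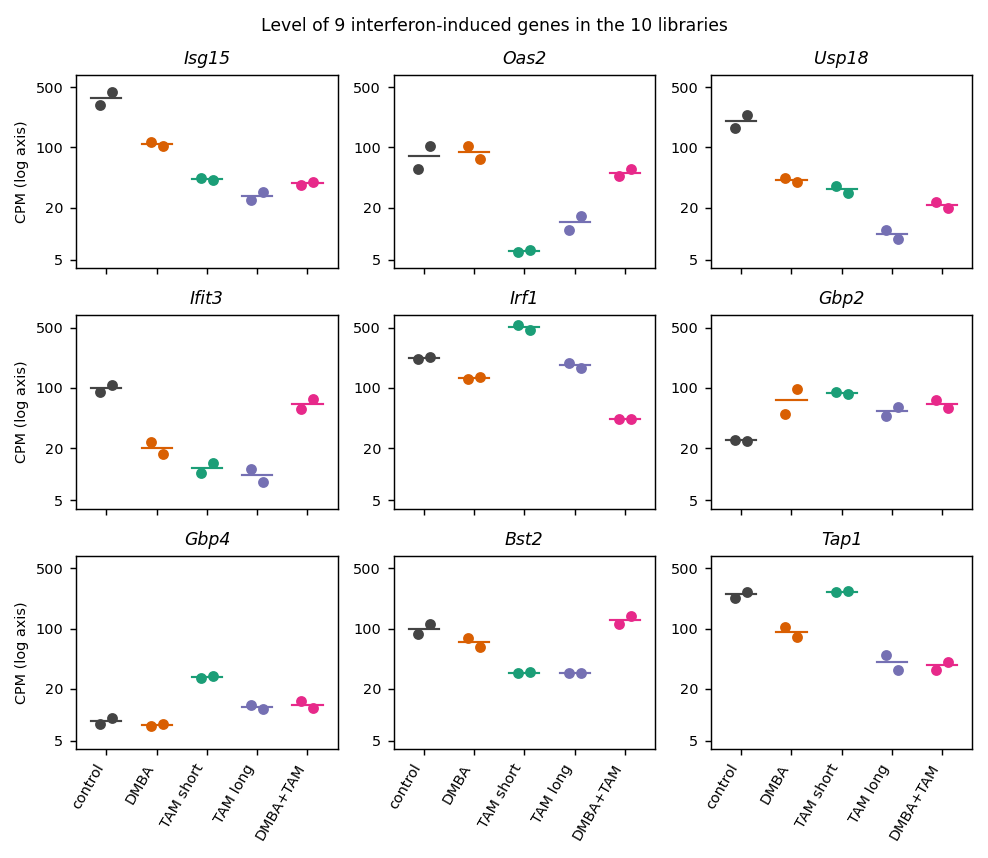
Level in CPM (log axis, the same in all panels) of 9 interferon-induced genes, with 1 point for each of the 2 libraries of a group and a line at the group mean. Isg15 and Usp18 are highest in control, Irf1 and Gbp4 in TAM short, and Ifit3 and Bst2 are higher in DMBA+TAM than in TAM short or TAM long.

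TAM short was compared with control to ask how the genes stood in organoids given tamoxifen and in those given saline. In TAM short 13 of 17 effectors were lower, 4 GTPases and Irf1 were higher, and the antigen-processing genes did not pass the test. Of the 38 genes, 21 were lower and 5 higher (edgeR's quasi-likelihood F test, p-values adjusted by Benjamini and Hochberg's method over 16179 genes, adjusted p below 0.05), where 7.80% and 6.52% of all genes tested were called lower and higher. The median log2 fold change was -0.76 for the 38 genes and -0.04 for all genes tested, and the groups did not overlap for 30 of the 38 (78.9%) and 63.2% of all genes. The fit uses all 10 libraries with trimmed mean (TMM) scaling, and with 2 libraries against 2 the smallest two-sided p that exact permutation allows for 1 gene is 0.333.

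The largest falls were in effectors. Oas2 changed by -3.67 ± 0.33 (SE, edgeR adjusted p = 0.000139) on the log2 scale, Isg15 by -3.12 ± 0.18 (SE, edgeR adjusted p = 1.67e-05), Ifit3 by -3.07 ± 0.25 (SE, edgeR adjusted p = 8.11e-05) and Ifi44 by -2.85 ± 0.18 (SE, edgeR adjusted p = 2e-05), all lower in both TAM short libraries than in both control libraries. In all, 13 of 17 effectors fell, among them Oasl2 (-2.12), Mx2 (-2.09), Oas3 (-2.02), Rsad2 (-2.01), Xaf1 (-1.86), Ifit1 (-1.85), Oas1a (-1.72), Bst2 (-1.69) and Oasl1 (-0.81) on the log2 scale. The other 4 did not pass the test, with Parp9 (-0.00) and Parp14 (0.01) near 0, Ifit2 at 0.23 and Mx1 at -0.70. The sensors Dhx58 (-2.63), Ddx58 (-1.81) and Ifih1 (-0.77) fell and Zbp1 (0.40) was not called. Of the regulators, Usp18 (-2.61), Irf7 (-1.21), Stat2 (-0.76) and Irf9 (-0.57) fell.

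Irf1 rose instead, by 1.18 ± 0.12 (SE, edgeR adjusted p = 0.000242), as did the GTPases Gbp2 (1.82 ± 0.27, adjusted p = 0.00227), Gbp4 (1.70 ± 0.17, adjusted p = 0.000244), Iigp1 (1.52 ± 0.21, adjusted p = 0.00134) and Gbp7 (0.55). Gbp6 fell (-1.54), and Gbp3 (-0.66), Igtp (0.07) and Irgm1 (-0.12) were not called. None of the 4 antigen-processing genes passed the test (log2 fold changes -0.01 to 0.63, 0 of 4 with an unadjusted p under 0.05 in edgeR). DESeq2 and limma on FPKM called 0 of the 4 as well, and Nlrc5 was called higher without the filter on low counts and when only these 4 libraries were fitted. Beside this comparison, the 6 leukocyte markers summed to 101 and 173 CPM in control and 328 and 365 in TAM short, with 3 of 6 called higher. The T and NK cell markers summed to 54.4 and 68.5 against 101 and 107 CPM, with 2 of 9 tested called higher (Cd4 and Trac) and 1 lower (Klrd1), and no marker of either list was at 0 counts in these libraries. The 7 macrophage markers summed to 149 and 169 against 239 and 204 CPM, with 2 called higher. None of the 8 epithelial markers was called (log2 fold changes -0.35 to 0.48). Of the small intestine markers 4 of 8 were lower and 1 higher (-9.45 to 12.38), of the fibroblast markers 3 of 8 were lower and 1 higher, and of the endothelial markers 2 of 5 were lower. The part of these cells in the result was not tested.

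The genes upstream of the 38 were read from lists chosen with earlier results of these data known. Of 20 interferon genes, 16 had no count in any library, including every alpha interferon and Ifnb1. Ifnk had at most 2 counts in a library, Ifnl2 had 2 in DMBA replicate 1 alone, and Ifnl3 had 1 in each control library. The control libraries held 0 and 1 counts of Ifng, the type II interferon, with 1 and 3 in DMBA, 23 and 27 in TAM short, 2 and 0 in TAM long and 0 in both DMBA+TAM libraries. It was called higher in TAM short than in control (edgeR adjusted p = 0.00864) and, against a floor of 3 counts per control library, at least 8.57-fold. A count of 0 in a library allows up to 3 counts, so low levels of the other interferons could not be seen at this depth. The interferon receptors changed little in this comparison, with Ifngr1 higher (0.50), Il10rb lower (-0.77), and Ifnar1 (0.06), Ifnar2 (-0.53), Ifngr2 (0.27) and Ifnlr1 (-0.42) not called. Of 10 kinases, STATs and IRFs, Stat3 (0.66) and Irf8 (0.98) rose and none fell. Of 7 tested genes listed as brakes, Socs1 (2.00), Socs3 (1.22) and Ptpn1 (0.55) rose. Of 41 other interferon-induced genes, 21 fell and 7 rose. The 7 that rose were Gbp10 (1.94), Gbp8 (1.46), Tgtp2 (1.32), Cxcl9 (1.30), Tgtp1 (1.21), Ifi47 (0.90) and Irgm2 (0.83), which are GTPases except for the chemokine Cxcl9. Those that fell furthest were Oas1b (-3.71), Trim30a (-3.20) and Phf11d (-2.77). None of the 9 class I molecules and proteasome subunits was called (log2 fold changes -0.39 to 0.43, 3 with an unadjusted p under 0.05).

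TAM long was set beside DMBA, the other group labelled Long, whose libraries are, like those of TAM long, low in small intestine and high in colon markers (summed means 58.8 and 236 CPM for small intestine and 5248 and 9237 CPM for colon in DMBA and TAM long). Here 19 of the 38 genes were lower in TAM long and none was higher, against 1.46% and 1.24% of all genes tested (edgeR). The median log2 fold change was -0.94 for the 38 genes and -0.00 for all genes, 36 of the 38 (94.7%) lay below 0 where 50.3% of all genes did, and the groups did not overlap for 36 (94.7%), against 48.6% of all genes. The count of called genes was sensitive to the fit, with 7 without TAM long replicate 2, 8 without TAM long replicate 1, 6 when only the 4 libraries compared were fitted and 31 (30 lower and 1 higher) without the filter on low counts. DESeq2 called 27 lower and 1 (Irf1) higher, limma on FPKM 13 and 0, and 34 of the 38 genes (89.5%) had an unadjusted p under 0.05 in edgeR, against 19.6% of all genes. The largest falls were Ifi44 at -2.84 ± 0.19 (SE, edgeR adjusted p = 0.000147), Oas2 at -2.69 ± 0.30 (SE, edgeR adjusted p = 0.00304), Usp18 at -2.09 ± 0.20 (SE, edgeR adjusted p = 0.00121) and Isg15 at -2.00 ± 0.18 (SE, edgeR adjusted p = 0.000832) on the log2 scale. These 4 calls held without any single library. By role, 11 of 17 effectors, 3 of 4 sensors, 2 of 5 regulators, 2 of 8 GTPases and 1 of 4 antigen-processing genes fell. Further called genes were Dhx58 (-1.83), Mx2 (-1.68), Oasl2 (-1.56), Mx1 (-1.35), Oas3 (-1.34), Oas1a (-1.21), Gbp3 (-1.21), Bst2 (-1.19) and Tap1 (-1.17). The 2 genes above 0, Irf1 (0.50) and Gbp4 (0.67), were not called, and neither were Ifit3 (-1.04), Ifit2 (-1.15), Nlrc5 (-1.23) or Gbp6 (-1.93).

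Outside the 38 genes the same comparison called 11 of 41 other interferon-induced genes lower and none higher, with Apol9b (-1.69), Ifi27l2a (-1.49) and Trim30a (-1.45) the largest. No receptor, kinase, STAT, IRF, adaptor, brake or class I molecule was called. In edgeR, 2 of 6 receptors, 2 of 10 kinases, STATs and IRFs, 2 of 9 adaptors, 2 of 7 brakes and 3 of 9 class I molecules had an unadjusted p under 0.05. The leukocyte markers summed to 94.1 and 229 CPM in DMBA and 114 and 96.0 in TAM long, and the macrophage markers to 183 and 215 against 187 and 177, with none of 6 and none of 7 called. Epithelial markers summed to 13808 and 12950 against 13223 and 14867 CPM, with none of 8 called. Of the 8 fibroblast markers Col1a1 (-1.31) and Col1a2 (-0.84) were lower, and of the 8 small intestine markers Apob (2.74) was higher. The part of these in the result was not tested.

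TAM short against control and TAM long against DMBA share no library, and 14 genes were lower in both, which is 66.7% of the 21 that fell in the first and 73.7% of the 19 that fell in the second. Of all genes tested, 89 were lower in both, which is 7.05% of 1262 and 37.7% of 236. The 14 interferon-induced genes were the regulators Stat2 and Usp18, the sensors Ddx58 and Dhx58, and the effectors Ifi44, Isg15, Oas1a, Oas2, Oas3, Oasl1, Oasl2, Mx2, Bst2 and Xaf1. No gene sorted here as an interferon-inducible GTPase or as antigen-processing was among them. The difference between both changes was tested as well. Its reference groups differ, since DMBA received a carcinogen and control saline. It therefore also contains the change of DMBA against control and is not a test of tamoxifen alone. Of the 38 genes 14 passed (edgeR). In 8 the log2 fold change was lower in TAM long against DMBA than in TAM short against control (2.78% of all genes). In 6 it was higher (2.93%). The first kind were Iigp1, Gbp2, Nlrc5, Zbp1, Tap1, Gbp7, Gbp4 and Irf1, and the second Ifit3, Rsad2, Ifit1, Isg15, Ddx58 and Xaf1. This count fell to 4 without control replicate 2 or without TAM short replicate 1, and to 5 without TAM short replicate 2. The 4 largest in each direction were Iigp1 (-2.34 ± 0.29, adjusted p = 0.00318), Gbp2 (-2.27 ± 0.38, adjusted p = 0.0102), Nlrc5 (-1.86 ± 0.42, adjusted p = 0.0322) and Zbp1 (-1.36 ± 0.19, adjusted p = 0.00488), and Ifit3 (2.03 ± 0.34, adjusted p = 0.0111), Rsad2 (1.81 ± 0.42, adjusted p = 0.0364), Ifit1 (1.35 ± 0.29, adjusted p = 0.0297) and Isg15 (1.12 ± 0.25, adjusted p = 0.0297), with SE and edgeR adjusted p.

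**Figure D4:**
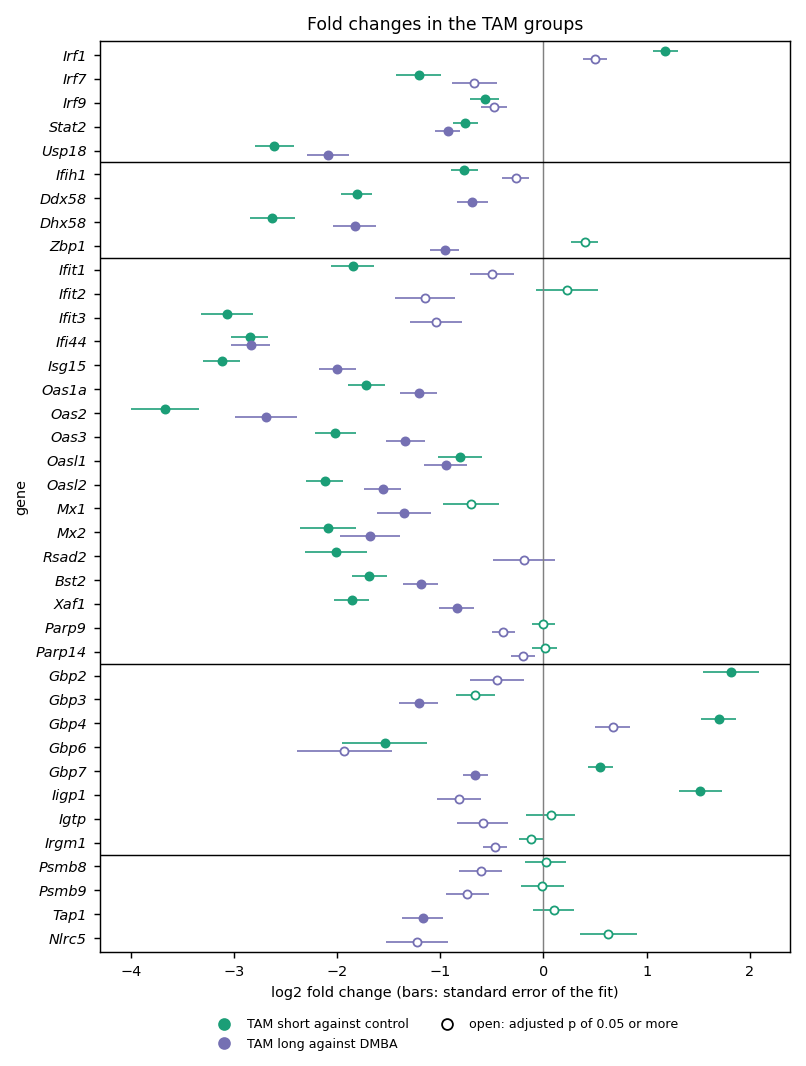
Log2 fold change with its standard error for each of the 38 genes in TAM short against control (green) and TAM long against DMBA (purple), where filled points passed an adjusted p of 0.05. Most effectors lie left of 0 in both, while Irf1, Gbp2, Gbp4, Iigp1 and Gbp7 are filled right of 0 in TAM short alone.

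DMBA and TAM long were also compared with the control group, which both share. DMBA had 26 of the 38 genes lower and 5 higher (23.3% and 24.5% of all genes, median log2 -0.91 against 0.07), and TAM long had 32 lower and 2 higher (22.8% and 23.2%, median -1.71 against 0.05), by edgeR. Against a background of this size the counts of lower genes exceeded the background and those of higher genes did not. The gut markers separate these groups from control in the same way (7 of 8 small intestine markers lower in each), and other lists moved as well. In both groups 6 of 9 T and NK cell markers were lower and 5 of 5 smooth muscle markers higher, and of the 8 fibroblast markers 7 were higher in DMBA and 4 higher and 1 lower in TAM long. Treatment and these markers cannot be told apart here.

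In DMBA the largest falls were Ifit3 (-2.29 ± 0.24, adjusted p = 5e-05), Usp18 (-2.27 ± 0.19, adjusted p = 1.3e-05), Igtp (-2.09 ± 0.25, adjusted p = 0.000124) and Oasl1 (-1.94 ± 0.21, adjusted p = 7.74e-05). The rises were Gbp2 (1.57 ± 0.27, adjusted p = 0.00118), Mx1 (1.08 ± 0.26, adjusted p = 0.00663), Ifit2 (0.91 ± 0.29, adjusted p = 0.0279), Gbp3 (0.66 ± 0.19, adjusted p = 0.0162) and Iigp1 (0.63). All 4 sensors fell, as did 13 of 17 effectors, 3 of 5 regulators and 3 of 4 antigen-processing genes, and the GTPases split 3 and 3. The calls of Gbp3 (adjusted p = 0.111 without DMBA replicate 2, 0.109 without control replicate 1), Ifit2 (0.189 without DMBA replicate 1, 0.181 without control replicate 1) and Mx1 (0.0637 without control replicate 1) were lost when those libraries were left out. Irf7 (0.02), Irf9 (-0.02), Oas1a (-0.14) and Oas2 (0.14) overlapped between the groups.

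In TAM long the largest falls were Ifi44 (-4.52 ± 0.20, adjusted p = 3.69e-07), Usp18 (-4.35 ± 0.21, adjusted p = 5.91e-07), Isg15 (-3.77 ± 0.19, adjusted p = 7.18e-07) and Mx2 (-3.49 ± 0.29, adjusted p = 1.41e-05). All 4 sensors, all 4 antigen-processing genes, 15 of 17 effectors, 4 of 5 regulators and 5 of 8 GTPases fell. Gbp2 (1.12 ± 0.27, adjusted p = 0.00772) and Gbp4 (0.53 ± 0.17, adjusted p = 0.0301) rose. The call of Gbp2 was lost without control replicate 2 (adjusted p = 0.0508) or TAM long replicate 2 (0.0552), and that of Gbp4 without any of the 4 libraries (0.0536 to 0.169). Of the pathway lists, 28 of 41 other interferon-induced genes and all 9 class I molecules fell in TAM long, and 24 of 41 and 8 of 9 in DMBA.

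DMBA+TAM, the group given both agents, had 27 of the 38 genes lower than control and 4 higher, where 35.3% and 29.0% of all genes were called lower and higher (edgeR), with a median log2 fold change of -1.79 against -0.17 for all genes. With library size scaling and with limma on FPKM the counts were 24 lower and 7 higher. Of the GTPases 4 of 8 were higher and 2, Igtp (-3.19) and Irgm1 (-1.56), were lower. The largest falls were Oasl1 (-4.39 ± 0.26, adjusted p = 3.55e-07), Oas3 (-3.68 ± 0.23, adjusted p = 4.96e-07), Isg15 (-3.27 ± 0.20, adjusted p = 3.65e-07) and Usp18 (-3.23 ± 0.22, adjusted p = 8.07e-07). The rises were Gbp2 (1.39 ± 0.29, adjusted p = 0.00187), Iigp1 (0.74 ± 0.22, adjusted p = 0.0156), Gbp4 (0.62 ± 0.20, adjusted p = 0.0217) and Gbp7 (0.34 ± 0.13, adjusted p = 0.0461). The call of Gbp7 was lost without any of the 4 libraries (adjusted p = 0.0597 to 0.213), that of Gbp4 without control replicate 1 (0.0998) or DMBA+TAM replicate 1 (0.176), and that of Iigp1 without control replicate 1 (0.106) or DMBA+TAM replicate 2 (0.161). All 5 regulators and 4 sensors, 13 of 17 effectors and 3 of 4 antigen-processing genes fell. Bst2 (0.34), Ifit2 (0.23), Mx1 (0.23), Oas2 (-0.64), Gbp3 (0.43), Gbp6 (-0.46) and Nlrc5 (-0.05) were not called.

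The genes of the pathway lists changed in both directions. Ifnlr1, the receptor chain for interferon lambda, had 269 and 251 counts in control and 1 and 4 in DMBA+TAM (log2 -4.64), Ifngr2 (-1.09) and Il10rb (-1.11) were lower, Ifnar1 (1.08) and Ifnar2 (2.26) were higher and Ifngr1 (-0.16) was not called. Irf5 (3.95), known from myeloid cells, rose and Irf8 (-1.22) fell. Of the adaptors, Tmem173 (STING, 3.43) rose and Trim25 (-2.30) and Ticam1 (-2.29) fell. Of 7 genes listed as brakes 5 rose, among them Isg20 (0.98), an exonuclease rather than a brake, with Ptpn1 (2.04), Socs3 (1.92) and Ptpn6 (1.64) the largest. Of 41 other interferon-induced genes 24 fell and 8 rose, with Apol9a (-7.02) and Ifit1bl1 (-6.16) the largest changes. Cxcl11 fell from 57 and 60 counts in control to 1 and 0 in DMBA+TAM, which is at least 4.7-fold lower against a floor of 3 counts per library. All 9 class I molecules and proteasome subunits fell. H2-K1 (-5.95) had 53 and 47 counts in DMBA+TAM where H2-D1 had 2119 and 2648, against 11717 and 13878 and 27512 and 29806 in control, and Psmb10 (-2.90) and Psme2 (-2.89) followed. Whether the near absence of epithelial markers has a part in these values was not tested.

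Against the groups with a single agent, DMBA+TAM did not move in the same direction throughout. These comparisons share the DMBA+TAM libraries. Against TAM long, 15 of the 38 genes were higher and 9 lower (25.3% and 29.9% of all genes, median log2 0.18 against -0.14, edgeR). Ifit3 (2.73 ± 0.26, adjusted p = 1.17e-05), Gbp6 (2.53 ± 0.53, adjusted p = 0.00247), Bst2 (2.04 ± 0.17, adjusted p = 5.26e-06) and Oas2 (1.92 ± 0.32, adjusted p = 0.000596) rose most, and Irf1 (-2.08 ± 0.13, adjusted p = 7.22e-07), Oasl1 (-1.51 ± 0.26, adjusted p = 0.000696), Irf7 (-1.46 ± 0.23, adjusted p = 0.000468) and Oas3 (-1.37 ± 0.23, adjusted p = 0.000631) fell most. Rsad2 (0.00), Irf9 (-0.05) and Irgm1 (-0.06) overlapped between the groups. Within the effectors 6 of 17 rose (35.3%) and 4 fell (23.5%), where 25.3% and 29.9% of all genes did. Their median log2 fold change was 0.47, against -0.14 for all genes, and this difference was not tested.

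Against TAM short, 7 genes were higher and 17 lower (29.3% and 33.8% of all genes, median -0.43 against -0.14, edgeR). With scaling by library size alone these became 9 and 13. Oasl1 (-3.58 ± 0.26, adjusted p = 1.34e-06), Irf1 (-3.54 ± 0.14, adjusted p = 2.61e-08), Igtp (-3.27 ± 0.28, adjusted p = 5.01e-06) and Psmb9 (-3.06 ± 0.24, adjusted p = 2.56e-06) fell most, and Oas2 (3.03 ± 0.35, adjusted p = 3.58e-05), Ifit3 (2.47 ± 0.26, adjusted p = 1.83e-05), Bst2 (2.03 ± 0.17, adjusted p = 4.43e-06) and Gbp3 (1.09 ± 0.21, adjusted p = 0.0012) rose most. Against DMBA, 3 were higher and 23 lower (25.2% and 29.9% of all genes, median -0.78 against -0.14, edgeR). The rises were Ifit3 (1.70 ± 0.25, adjusted p = 0.000252), Bst2 (0.86 ± 0.17, adjusted p = 0.00164) and Gbp4 (0.76 ± 0.20, adjusted p = 0.00962, lost at 0.0808 without DMBA+TAM replicate 1), and the largest falls were Oas3 (-2.70 ± 0.23, adjusted p = 5.88e-06), Oasl1 (-2.45 ± 0.26, adjusted p = 2.53e-05), Irf7 (-2.13 ± 0.24, adjusted p = 4.11e-05) and Oasl2 (-1.69 ± 0.18, adjusted p = 3.27e-05). Ifit3 and Bst2 were called higher in DMBA+TAM than in each group with a single agent, and Oas3, Oasl1, Irf1, Irf7, Ifih1, Zbp1, Parp9, Parp14 and Psmb8 lower. These comparisons share the DMBA+TAM libraries, and the share of all genes called in every one of them was not counted. The names are therefore a description only. Ifit3 shares 51.2% of its 50-base stretches with Ifit3b, which had 26 and 32 counts in DMBA+TAM and 173 and 227 in control.

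**Figure D5:**
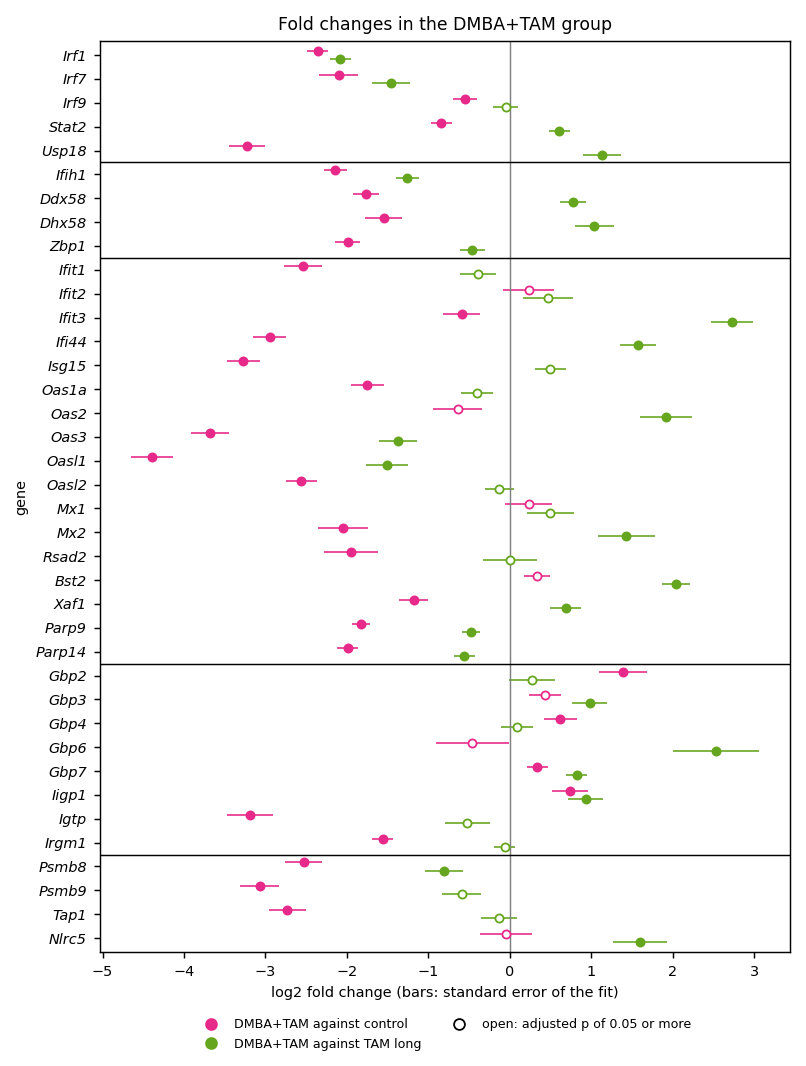
Log2 fold change with its standard error for each of the 38 genes in DMBA+TAM against control (pink) and against TAM long (green), where filled points passed an adjusted p of 0.05. Most genes lie left of 0 against control, while Ifit3, Bst2, Oas2, Ifi44, Usp18, Mx2 and Nlrc5 lie right of 0 against TAM long.

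The letters in the promoters were set beside these changes, as a description with no test. A gene without an ISRE is here one without an exact match in its windows. In TAM short against control, 10 of the 15 genes with an ISRE fell and 2 (Gbp2 and Gbp7) rose, with a median log2 fold change of -1.69, and 6 of the 11 genes with a window but no ISRE fell and 1 (Irf1) rose, with a median of -0.57. Of the 7 genes with a GAS, 2 rose and 2 fell, with a median of 0.07, and the 3 of them without an ISRE (Irf1, Ifit2 and Psmb8) had a median of 0.23. In TAM long against DMBA the medians were -0.69 with an ISRE, -0.84 without and -0.66 with a GAS. In DMBA+TAM against control they were -1.75, -2.53 and -1.75. Scaling shifts the level of all genes in some comparisons. With library size alone in place of TMM, the median log2 fold change of all genes moved from -0.17 to 0.31 in DMBA+TAM against control, from 0.07 to 0.38 in DMBA against control and from 0.05 to 0.37 in TAM long against control, while it moved from -0.04 to 0.04 in TAM short against control. None of the genes named with full statistics changed sign under any alternative run.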

How the data were processed

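RNA of 10 mouse intestinal organoid libraries was sequenced after poly-T selection and preparation with a kit that does not mark strand. The authors aligned reads with TopHat v2.0.12 and counted them per gene with HTSeq v0.6.1 on GRCm38.p6, per the methods and the submitters' processing notes, and deposited read counts and FPKM values for 47069 genes in 10 libraries (5 lines without counts were left out). The table also holds the authors' group means of FPKM and columns of their own comparisons (group counts, log2 fold changes, p-values and calls), which were not used. FPKM was used to compare levels between genes and in one alternative. The length behind the deposited FPKM equalled the listed gene length in 1795 of 8313 genes with at least 20 counts in every library (tolerance 0.1%), so FPKM levels rest on a length the authors did not list for the others.

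Counts were tested in edgeR 4.0.16 (R 4.3.3) by the quasi-likelihood test, with TMM scaling, filtering by expression per group, 1 fit over all 10 libraries and Benjamini-Hochberg adjustment over 16179 genes at 0.05, after the scripts were tested on simulated data. CPM values are counts relative to TMM-scaled library totals. The methods name ClustVis for heatmaps of differential expression, gene set enrichment analysis, and the t-test and ANOVA for p-values. They name no count model or design for testing single genes in the RNA-seq data. Gbp6 is listed under 2 identifiers, 1 of which has 0 counts and was not used. Promoters came from RefSeq tables. The members, roles, pathway lists and marker lists were chosen with earlier results of these data known, and the small intestine and colon lists were added after the data were examined. Every member is given by its level, and the 4 largest called rises and 4 largest called falls of each comparison with full statistics. In the pathway lists, receptors, ligands with a count and the 3 largest called changes per list are named, with some results not reported here, for DMBA+TAM against control and TAM long against DMBA, and the genes named for TAM short against control were chosen after their values were seen. Alternatives were DESeq2 1.42.0, library size scaling, no filter, only the groups compared, a replicate block, limma 3.58.1 on log2(FPKM + 1), thinned counts, each library left out and, added after the data were examined, a fit without DMBA+TAM. With a library left out, its group keeps 1 library and the spread in the test comes from the other groups. A floor is 3 counts per library and covers counting error only.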

Additional observations from a re-analysis of the deposited data

Results flagged for a closer look

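The change between TAM long and DMBA differed from that between TAM short and control in 14 of the 38 genes, by a test of the difference itself (edgeR, adjusted p below 0.05, log2 scale). Of all genes tested, 2.78% had a lower change in TAM long against DMBA by this test and 2.93% a higher one. The reference groups differ in the carcinogen, so the tested difference also contains the change of DMBA against control. The count of 14 depended on which libraries were fitted, as given below. The log2 fold change was lower in TAM long against DMBA for Iigp1 (-2.34), Gbp2 (-2.27), Nlrc5 (-1.86), Zbp1 (-1.36), Tap1 (-1.27), Gbp7 (-1.21), Gbp4 (-1.02) and Irf1 (-0.68). Gbp4 and Irf1 lay above 0 in both comparisons, without a call in TAM long against DMBA. The log2 fold change was higher in TAM long against DMBA for Ifit3 (2.03), Rsad2 (1.81), Ifit1 (1.35), Isg15 (1.12), Ddx58 (1.12) and Xaf1 (1.02). The groups hold 2 libraries each, so no single library was tested as standing apart. Of the 4 genes with the largest difference in each direction, Iigp1 and Zbp1 passed without any single library, and Gbp2, Nlrc5, Ifit3, Rsad2, Ifit1 and Isg15 did not.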

How the results depend on the processing

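Of the counts of called genes, 97 stayed within 1.5 times the reported one and 11 did not. For TAM long against DMBA (19 genes) the count was 31 without the filter (30 lower and 1 higher) and 6 with only the groups compared, and 7 to 22 with each library left out. For the difference of both changes (14 genes) it was 6 with limma on FPKM (1 higher and 5 lower, against 6 and 8) and 7 with thinned counts, and 4 to 16 with each library left out (8 without TAM long replicate 1 or 2). The cause was not tested. For single named genes, 722 values kept their call, 59 kept the direction and lost it, and none reversed. DMBA+TAM against TAM short had 9 higher and 13 lower both with library size scaling and with limma on FPKM, against 7 and 17. Without DMBA+TAM the 5 other counts were 31, 34, 26, 19 and 13, for DMBA, TAM long and TAM short against control, TAM long against DMBA and the difference. Shared replicate numbers came from the labels with no shared source stated, and deviations of libraries with the same number correlated at -0.041 to 0.26. With the replicate block the counts were 29, 26, 24 and 24 for DMBA+TAM against control, DMBA, TAM long and TAM short, 30 for DMBA, 34 for TAM long and 27 for TAM short against control, 18 for TAM long against DMBA and 12 for the difference. The depth of DMBA+TAM limits genes of few counts there, such as Gbp6 with 9 and 18.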

Other observations

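Trex1, a DNase listed with the brakes, had 0 counts in every library. Across the 41 other interferon-induced genes, the difference between the change in TAM long against DMBA and that in TAM short against control was called in 11 (6 higher and 5 lower, where 2.93% and 2.78% of all genes were), and in the upstream lists it was called for Socs1 (-2.35), Irf8 (-1.20), Ikbke (-0.85) and Il10rb (1.12) (edgeR, log2). The 4 plasmacytoid dendritic cell markers measured summed to 68.0 and 74.2 CPM in control, 115 and 131 in DMBA, 95.8 and 88.1 in TAM short, 120 and 124 in TAM long and 234 and 216 in DMBA+TAM, where 2 of the 4 were called higher than in control and 2 lower.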
